A study of Mus musculus with 4 samples.

Results

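The genes described here are 10 antioxidant and superoxide genes of macrophages, chosen by name: Slc7a11, Gclc, Gclm, Nqo1, Txnrd1, Srxn1, Prdx1, Sod2, Cybb and Ncf1. The choice was made with earlier results of these data known. All 10 were found among the 19938 genes that a probe set of the array measured alone, 9 of them through 1 probe set and Prdx1 through 2, which were averaged. The study asked how far macrophages of the M1 and M2 phenotypes differ in their response to interleukin-1α (IL-1α), an inflammatory cytokine. Macrophages of C57BL/6N mice were grown from bone marrow in 10 ng/mL M-CSF with a harvest on day 9, and all 4 groups share that treatment. M1 cells received 10 ng/mL interferon-γ and M2 cells 20 ng/mL interleukin-4 for 48 h, and each phenotype was given either vehicle or 10 ng/mL IL-1α for 24 h. Each of the 4 combinations of phenotype and treatment was measured on 1 array, so replicate errors cannot be given. The labels give neither the number of mice nor whether cells were pooled, and name no unpolarised cells, so M1 and M2 can only be set against each other.

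NRF2 (gene Nfe2l2) is a transcription factor that KEAP1 holds for degradation until oxidants or electrophiles modify KEAP1. Stabilised NRF2 pairs with small MAF proteins and binds antioxidant response elements near genes for glutathione synthesis, thioredoxin recycling and quinone reduction. Macrophages also make superoxide on purpose: the phagocyte NADPH oxidase, whose catalytic subunit is the product of Cybb, passes electrons from NADPH to oxygen, and superoxide dismutases turn superoxide into hydrogen peroxide.

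Levels are RMA signals on the log2 scale, so a difference of 1 is 2-fold. Levels are compared between arrays within a gene and not between genes, because probes differ in brightness. The median signal of all genes and arrays, 7.617, served as a floor below which a signal may be background, and 10625 genes, 9 of the 10 among them, reached it on 1 array or more. The medians of all rows ran from 7.317 to 7.379 over the arrays. RMA in general sets arrays to a common distribution, so close medians are no check of their likeness. The 2 arrays of a phenotype correlated at r = 0.9969 (M1) and 0.9958 (M2) across all rows, against 0.9617 to 0.9658 between phenotypes. The phenotype labels matched their markers: all 8 M2 markers read at least 2-fold higher in M2 under vehicle, and 6 of the 7 M1 markers measured read at least 2-fold lower. All 9 macrophage markers measured reached the floor, and limma called 3 of them higher in M2 and 5 lower. The differences under vehicle ran from -3.06 (Fcgr1), -2.56 (C1qa) and -2.33 (Cd14) through -0.90 (Mertk) to 0.38 (Lyz2), 0.39 (Cd68) and 0.56 (Csf1r). The 12 neutrophil markers, which matter here because neutrophils are rich in the NADPH oxidase, had a summed log2 level of 83.83 and 84.17 on the M1 arrays and 92.87 and 91.44 on the M2 arrays. Ly6g, Camp, Elane, Retnlg and Cxcr2 of these read under the floor on every array, and of the other 7 limma called 6 higher in M2 and 1, Csf3r, lower. The 7 dendritic cell markers summed to 55.2 and 54.39 in M1 and to 48.12 and 47.82 in M2, with Flt3, Cd209a and Siglech under the floor on every array. Of the other 4, 3 (Clec9a, Xcr1 and Ccr7) read lower in M2 under vehicle and 1, Zbtb46, higher. None of the 6 lymphocyte markers measured, nor Alas2, the 1 erythroid marker measured, reached the floor, and the 5 fibroblast markers summed to between 38.84 and 39.55, with Dcn and Pdgfra under the floor on every array. The part of other cell types in the differences below was not tested. In bulk RNA, fewer cells of a type and less RNA per cell cannot be told apart.

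**Figure D1:**
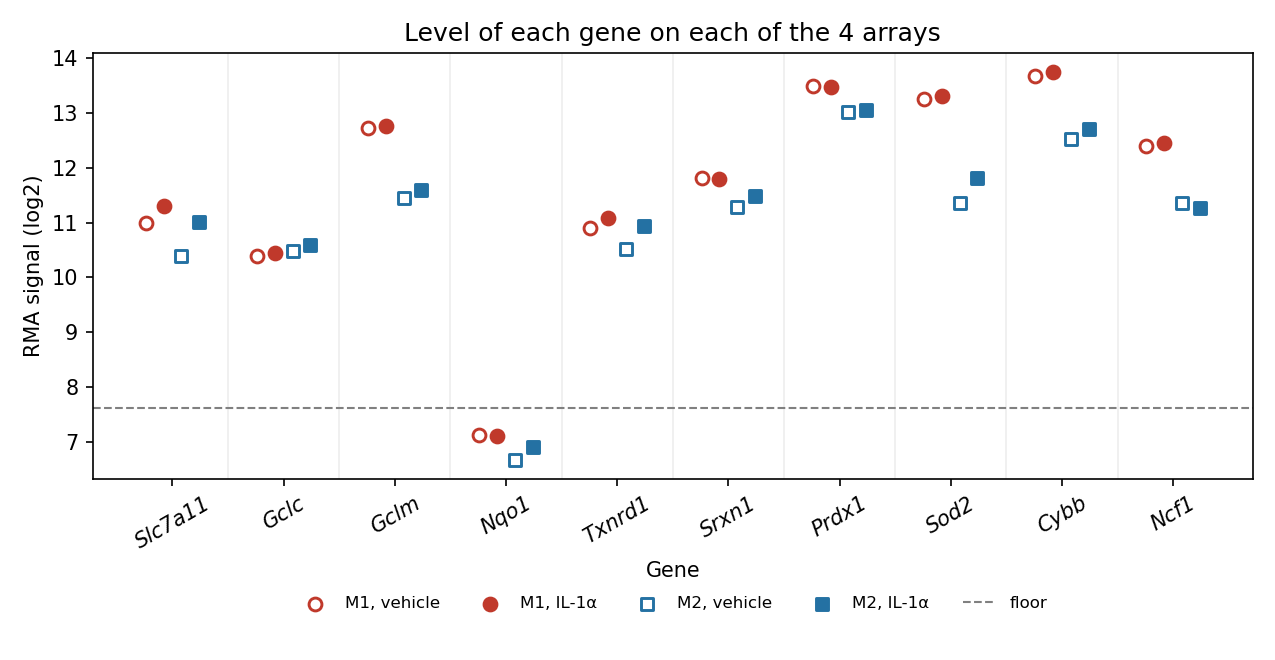
RMA signal (log2, y axis) of each of the 10 genes (x axis) on each of the 4 arrays, 1 point per array: circles are M1, squares M2, open symbols vehicle and filled symbols IL-1α. The dashed line is the floor of 7.617; in 6 of the 9 genes above it both M2 points lie below both M1 points, and Nqo1 lies under the floor throughout.

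Most of the chosen antioxidant and superoxide genes were lower in M2. The wider pathway lists described below went both ways, with 31 of 72 genes called higher in M2 by limma and 28 lower. Under vehicle 8 of the 9 chosen genes at the floor read lower in M2 and 1, Gclc, read higher. The median difference of the 9 was -0.61, against 0.01 over all 10489 genes compared, of which 51.2% read higher. Of the 9, 4 (Sod2, Gclm, Cybb and Ncf1) were at least 2-fold lower and 0 at least 2-fold higher, whereas 6.83% of all genes were at least 2-fold lower and 7.03% at least 2-fold higher. At 1.5-fold Slc7a11 joined them, making 5 of 9 lower against 13.3% of all genes. With IL-1α in both phenotypes the same 4 genes were lower in M2 by 2-fold or more and 0 were higher, against 6.06% and 8.15% of 10479 genes, and the median was -0.43 against 0.03. In 6 of the 9 genes both M2 arrays read below both M1 arrays, which was so for 38.3% of all genes. These differences between single arrays have no replicate check. Because the genes were chosen with earlier results of these data known, their counts beside the shares of all genes, here and below, are a description and no test of the set.

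The 4 arrays allow an additive limma model of phenotype and treatment, fitted to all 10625 genes. Its phenotype term sets the difference common to both treatments against the departure from additivity. With Benjamini-Hochberg adjustment over all genes, limma called 8 of the 9 genes lower in M2 and 0 higher, while it called 29.3% of all genes lower and 33.2% higher. The median phenotype effect was -0.46 over the 9 genes and 0.02 over all genes. Each gene has 1 residual degree of freedom of its own and borrows 10.05 from the other genes. The p-values set an effect against these 4 arrays alone, and the spread between cultures or animals is not in them.

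**Figure D2:**
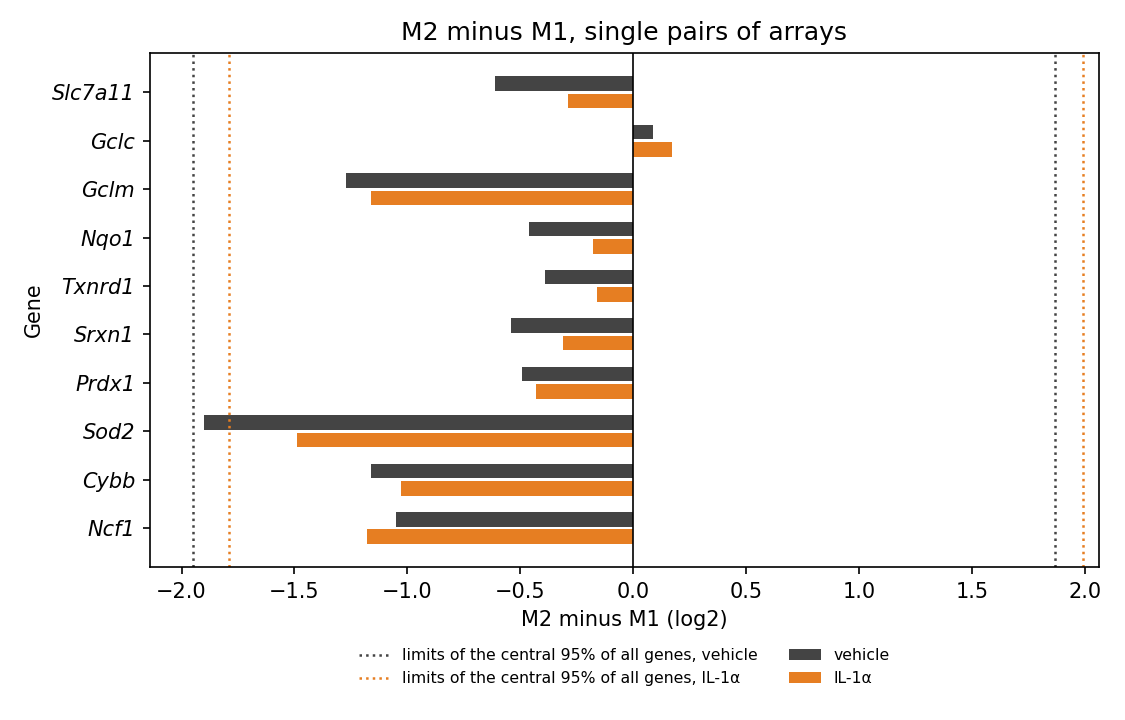
M2 minus M1 (log2, x axis) for each of the 10 genes (y axis), with 1 bar for the pair of vehicle arrays (dark) and 1 for the pair of IL-1α arrays (orange); dotted lines enclose the central 95% of all genes in each comparison. All bars point to lower M2 levels except those of Gclc, and the longest is that of Sod2 under vehicle, at -1.90. No bar passes the dotted lines of its comparison, which stand at -1.95 and 1.87 for vehicle and at -1.79 and 1.99 for IL-1α.

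The first 3 genes supply glutathione, the main small-molecule thiol of the cell. Slc7a11 encodes the exchanger that imports cystine in return for glutamate, which sets the supply of cysteine. Gclc and Gclm encode the catalytic and the modifier subunit of glutamate-cysteine ligase, the rate-limiting enzyme of glutathione synthesis. These subunits did not move together between the phenotypes. Gclm read 12.72 in M1 with vehicle, 12.76 in M1 with IL-1α, 11.45 in M2 with vehicle and 11.60 in M2 with IL-1α. Both M1 arrays thus lay above both M2 arrays, and M2 was 2.42-fold lower under vehicle and 2.24-fold lower under IL-1α. In limma the phenotype effect of Gclm was -1.22 ± 0.05 (SE, adjusted p = 2.65e-09). Gclc, the catalytic subunit, read 10.40, 10.44, 10.49 and 10.60 in the same order. Its 4 arrays spanned only 0.20, and its phenotype effect of 0.13 ± 0.07 did not pass the threshold in limma (adjusted p = 0.12).

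Slc7a11 was the gene of the set that stood highest in the response to IL-1α within both phenotypes. It read 11.00 in M1 with vehicle, 11.30 in M1 with IL-1α, 10.39 in M2 with vehicle and 11.01 in M2 with IL-1α. The M2 vehicle array was the lowest of the 4 and the M1 IL-1α array the highest, while M2 with IL-1α and M1 with vehicle differed by 0.01. Under vehicle Slc7a11 was 1.52-fold lower in M2, and under IL-1α 1.22-fold lower. The limma phenotype effect was -0.45 ± 0.08 (adjusted p = 3.88e-04).

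The promoter of Slc7a11 is shown because this gene had the largest IL-1α difference of the set, and because it holds paired letters of a stress element. The window is the 250 bases before the RefSeq start on build GRCm38.p6, minus strand, chr3:50443614-50443863, printed 5′ to 3′ in the direction of the gene. Capitals mark TGATGNAA, the letters of the amino acid response element, through which ATF4 acts.
Slc7a11: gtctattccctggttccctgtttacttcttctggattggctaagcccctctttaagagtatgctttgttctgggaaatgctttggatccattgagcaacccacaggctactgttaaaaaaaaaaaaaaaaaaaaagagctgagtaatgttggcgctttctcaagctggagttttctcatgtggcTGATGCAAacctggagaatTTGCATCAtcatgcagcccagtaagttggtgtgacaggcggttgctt
The element stands in both orientations, at 66 to 59 and at 47 to 40 bases before the start. Of 32851 such windows in the RefSeq table, 3.45% hold TGATGNAA on either strand, and among the 9 genes here that have a window (11 windows, 3 of them of Txnrd1) only Slc7a11 does. A match of letters is a description and not a shown binding site.

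The next 4 genes reduce quinones, thioredoxin and peroxides. Nqo1 encodes a quinone reductase that is a standard NRF2 target. It read 7.13 in M1 with vehicle, 7.10 in M1 with IL-1α, 6.68 in M2 with vehicle and 6.91 in M2 with IL-1α. All 4 values lie under the floor and may be background, so Nqo1 is not among the 9 genes counted.

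Txnrd1 encodes cytosolic thioredoxin reductase, which uses NADPH to keep thioredoxin reduced. It read 10.91 and 11.08 on the M1 arrays and 10.52 and 10.93 on the M2 arrays, with vehicle first. Here too the M2 IL-1α array reached the M1 vehicle array (difference 0.02), and the M2 vehicle array was the lowest. Its phenotype effect was the smallest of those called, -0.27 ± 0.07 (limma adjusted p = 0.0061).

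Prdx1 encodes a peroxiredoxin that reduces hydrogen peroxide with electrons from thioredoxin, and Srxn1 encodes sulfiredoxin, which repairs peroxiredoxins that have been over-oxidised. Srxn1 read 11.82 and 11.80 on the M1 arrays and 11.28 and 11.49 on the M2 arrays, with vehicle first. Prdx1 read 13.50 and 13.48 in M1 and 13.01 and 13.05 in M2. Neither gene overlapped between the phenotypes. The limma phenotype effects of both were alike in size, -0.42 ± 0.07 for Srxn1 (adjusted p = 1.52e-04) and -0.46 ± 0.04 for Prdx1 (adjusted p = 1.82e-06). The 2 probe sets of Prdx1 gave the same direction, at -0.41 and -0.57 under vehicle.

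The promoters of Srxn1 and Prdx1 are set side by side because they are the windows of the set with more than 1 copy of TGANTCA, the letters that AP-1 and the MAF partners of NRF2 share. Both windows run 250 bases up to the RefSeq start on the plus strand of GRCm38.p6, Srxn1 at chr2:152105274-152105523 and Prdx1 at chr4:116685349-116685598. Capitals mark TGANTCA and, in Prdx1, also TGACNNNGC, the core of the antioxidant response element, which overlaps the second copy.
Srxn1: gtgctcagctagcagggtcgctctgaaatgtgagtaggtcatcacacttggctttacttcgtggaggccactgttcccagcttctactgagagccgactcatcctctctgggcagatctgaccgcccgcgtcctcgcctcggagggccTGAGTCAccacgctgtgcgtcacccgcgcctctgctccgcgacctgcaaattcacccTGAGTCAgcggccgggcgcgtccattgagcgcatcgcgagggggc
Prdx1: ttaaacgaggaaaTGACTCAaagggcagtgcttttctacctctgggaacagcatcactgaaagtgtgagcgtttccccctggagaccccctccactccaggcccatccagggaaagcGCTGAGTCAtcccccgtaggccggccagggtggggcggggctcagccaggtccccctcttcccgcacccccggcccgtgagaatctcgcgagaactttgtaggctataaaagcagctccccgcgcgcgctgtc
In Srxn1 the copies start 102 and 45 bases before the gene, and in Prdx1 they start 237 and 131 bases before it. TGANTCA stands in 6.75% of all windows, and in those of Srxn1, Prdx1 and Cybb here. TGACNNNGC, searched on both strands, stands in 10.2% of all windows, and in those of Gclm, Prdx1 and 1 of the 3 starts of Txnrd1. In Prdx1 it lies on the opposite strand, 133 to 125 bases before the start.

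Sod2, the mitochondrial manganese superoxide dismutase, showed the widest spread of the 10 genes over the arrays, 1.96. It read 13.25 in M1 with vehicle, 13.31 in M1 with IL-1α, 11.35 in M2 with vehicle and 11.81 in M2 with IL-1α. Sod2 was 3.74-fold lower in M2 under vehicle, and of 10489 genes only 272 had a lower difference. Under IL-1α it was 2.81-fold lower. The limma phenotype effect was -1.70 ± 0.08 (adjusted p = 3.94e-09). M2 cells given IL-1α remained 1.44 below M1 cells given vehicle, in contrast to the near-equal values of Slc7a11 and Txnrd1.

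The Sod2 promoter is shown because Sod2 had the largest phenotype difference of the set and its window carries letters of the NF-κB motif. The window is chr17:13007589-13007838 on the plus strand of GRCm38.p6, again the 250 bases before the RefSeq start. Capitals mark GGGRNYYYCC, the letters of the NF-κB motif, where R is A or G, Y is C or T and N is any base.
Sod2: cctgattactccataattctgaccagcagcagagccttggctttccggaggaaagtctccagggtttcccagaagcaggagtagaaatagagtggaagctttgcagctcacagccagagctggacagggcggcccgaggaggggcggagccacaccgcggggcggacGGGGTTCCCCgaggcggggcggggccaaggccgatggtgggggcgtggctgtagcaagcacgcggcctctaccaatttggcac
The motif lies 83 to 74 bases before the start. Here too a match of letters is not a shown binding site, and its part in the Sod2 difference was not tested. It was found in 5.0% of all windows on either strand, and here in those of Sod2 and Prdx1, where it is not capitalised. The STAT6 motif, TTC and GAA with 4 bases between them and found in 5.85% of all windows, had no match in the 11 windows, and the PU.1 motif GAGGAA, in 23.3% of all, matched in Txnrd1, Prdx1 and Sod2.

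Cybb and Ncf1 encode the membrane-bound catalytic subunit and a cytosolic organiser subunit of the phagocyte NADPH oxidase. Cybb read 13.68 in M1 with vehicle, 13.74 in M1 with IL-1α, 12.52 in M2 with vehicle and 12.71 in M2 with IL-1α. Ncf1 read 12.40, 12.45, 11.35 and 11.27 in that order. Both genes were higher on each M1 array than on each M2 array, and the sizes were close to each other. Cybb was 2.24-fold lower in M2 under vehicle and 2.04-fold lower under IL-1α, and Ncf1 2.07-fold and 2.26-fold lower. limma gave -1.10 ± 0.05 for Cybb (adjusted p = 1.89e-09) and -1.11 ± 0.06 for Ncf1 (adjusted p = 9.50e-09). The neutrophil markers summed higher in M2, opposite in direction to Cybb and Ncf1, but Csf3r among them was lower in M2 like both genes. It read 11.11 on each M1 array and 10.59 and 10.65 on the M2 arrays, with a limma effect of -0.49 ± 0.06 (adjusted p = 3.56e-05). The dendritic cell markers summed higher in M1, in the same direction as Cybb and Ncf1, but Zbtb46 among them was higher in M2. It read 7.46 and 7.43 on the M1 arrays, under the floor, and 7.94 and 7.89 on the M2 arrays. The part of any of these neutrophil and dendritic cell markers was not tested. The highest signal of any row was 14.40 on either M1 array, and whether closeness to it compressed the M1 values of Cybb, Sod2 and Prdx1 was not tested.

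In M1 the set read close to its vehicle level with IL-1α. No gene of the 9 was 2-fold higher or lower, as was true of all 10012 genes compared (0.0% in each direction), and the median was 0.06 against 0.00 over all genes. Slc7a11 read 0.30 higher with IL-1α and Txnrd1 0.18 higher. For Slc7a11 99.3% of all genes had a lower difference, and for Txnrd1 95.8%, in a comparison where the standard deviation across genes was 0.111. Sod2, Cybb and Ncf1 each read 0.06 higher, and Gclc and Gclm 0.04 higher. Srxn1 (-0.02) and Prdx1 (-0.01) read slightly lower.

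In M2 the IL-1α array read higher in 8 of the 9 genes, with a median of 0.19 against 0.05 over all 10284 genes, of which 69.3% read higher. After a further quantile normalisation the all-gene median was 0.008, so this shift of all genes depends on the scaling. No gene of the set reached 2-fold, which 0.35% of all genes did upward and 0.0% downward. At 1.5-fold 1 gene, Slc7a11, was higher (0.62, 1.54-fold), against 0.875% of all genes, and only 79 genes had a higher difference. Sod2 followed at 0.47 (1.38-fold) and Txnrd1 at 0.41 (1.33-fold), above 98.5% and 97.8% of all genes. Srxn1 was at 0.21, Cybb at 0.19, Gclm at 0.15, Gclc at 0.11 and Prdx1 at 0.04. Ncf1 was the exception at -0.07, so the NADPH oxidase pair that lay so close between the phenotypes read in opposite directions here, each by less than 0.2.

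**Figure D3:**
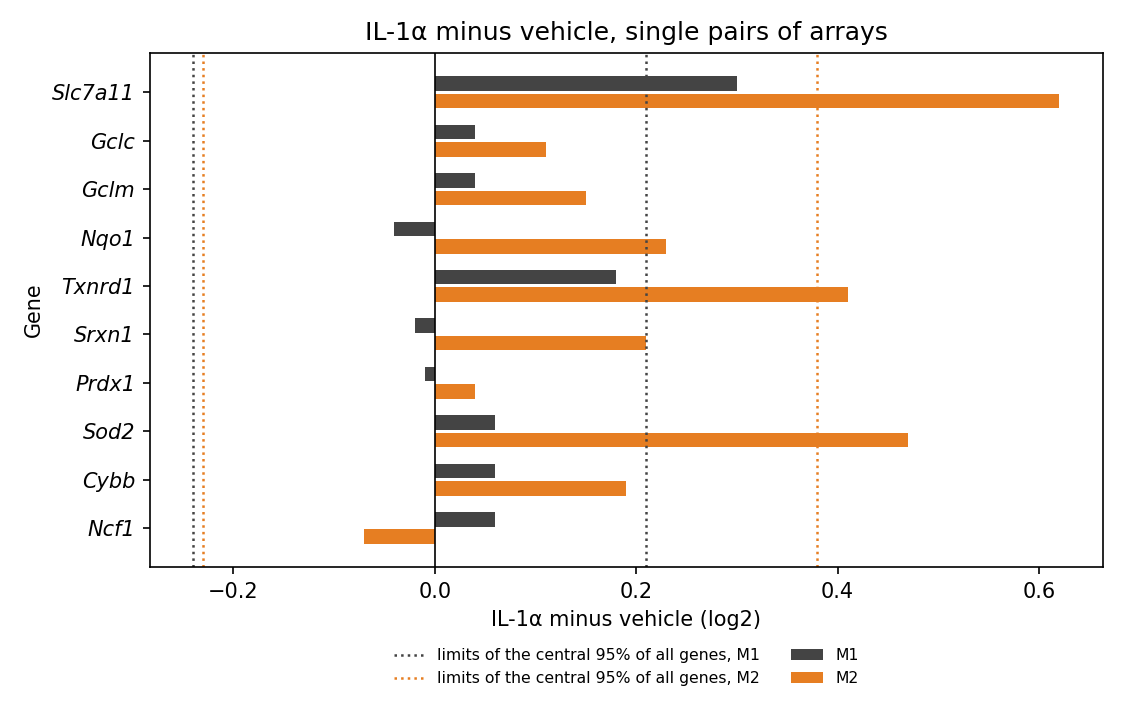
IL-1α minus vehicle (log2, x axis) for each of the 10 genes (y axis) in M1 (dark bars) and M2 (orange bars), each from a single pair of arrays; dotted lines enclose the central 95% of all genes. In M2, Slc7a11 (0.62), Sod2 (0.47) and Txnrd1 (0.41) lie beyond the upper line of 0.38, and in M1 only Slc7a11 (0.30) lies beyond its upper line of 0.21.

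The response in M2 minus that in M1 was above 0 in 8 of the 9 genes with a median of 0.13, against 0.06 over all 10625 genes, of which 66.1% were above 0. It reached 2-fold in no gene of the set, and in 0.32% of all genes upward and 0.0% downward. Sod2 had the largest value, 0.41, ahead of Slc7a11 (0.32), Txnrd1 (0.23) and Srxn1 (0.23), and Ncf1 had the lowest, -0.13. The 4 arrays leave no degree of freedom to test this contrast. Its all-gene median was 0.024 after a further quantile normalisation, so it too depends on the scaling.

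For an IL-1α effect shared by M1 and M2, limma called 0 of the 9 genes and 0 of all 10625 genes (0.0% in each direction), also with a robust fit. With a floor at the 75th percentile it called 1 of 5801 genes, which was not in the set. Unadjusted, 646 of the 10625 genes had a limma p under 0.05, 4 of them in the set. Slc7a11 had the smallest unadjusted limma p of the set, 1.08e-04, with an effect of 0.46 ± 0.08 and an adjusted p of 0.29, and its level was higher with IL-1α in both phenotypes. Txnrd1 followed at 0.29 ± 0.07 (limma adjusted p = 0.47), Sod2 at 0.26 ± 0.08 (limma adjusted p = 0.55) and Cybb at 0.13 ± 0.05 (limma adjusted p = 0.63).

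The genes around this set were described from 6 lists of 90 genes, of which 85 were measured and 72 reached the floor. In these lists limma called 31 genes higher and 28 lower in M2, or 43.1% and 38.9%, with a median effect of 0.07, against 33.2% and 29.3% of all genes. The regulators leaned to lower M2 levels: of 10, 6 were called lower and 1 higher. Keap1, the repressor of NRF2, was lower at -0.99 ± 0.08 (limma adjusted p = 4.83e-07), as were the small MAF genes Mafk (-0.69) and Mafg (-0.64), the autophagy receptor gene Sqstm1 (-0.52), Nfe2l1 (-0.48) and Rbx1 (-0.23). Nfe2l2 itself was the gene called higher, at 0.37 ± 0.06 (limma adjusted p = 2.78e-04). Bach1, a repressor that competes for antioxidant response elements, gave 0.02 and did not pass.

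The other NRF2 target genes split evenly. Of 21 at the floor, 10 were called higher and 9 lower in M2, with a median of 0.09. Gsr, which regenerates reduced glutathione, was the lowest in M2 at -1.39 ± 0.06 (limma adjusted p = 3.38e-09), followed by the NADPH-producing malic enzyme Me1 (-1.33), and the haem oxygenase gene Hmox1 was lower at -0.57. The epoxide hydrolase Ephx1 (3.04) and the NADPH-producing isocitrate dehydrogenase Idh1 (1.56) were the largest in the other direction. G6pdx was not analysed here.

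The list of glutathione use, which also holds the supply genes Gss and Slc3a2, went both ways too. Of its 17 genes at the floor, 9 were called higher and 5 lower, with a median of 0.35. The γ-glutamyl cycle enzyme Ggct (-1.72) and the glutaredoxin Glrx (-1.45) were lower in M2, as were the glutathione synthetase Gss (-0.45) and Slc3a2, the partner chain of the Slc7a11 transporter (-0.32). Ggct read under the floor on both M2 arrays, so the size of its difference is uncertain. The glutathione peroxidases Gpx1 (0.61) and Gpx4 (0.71) and the transferases Gsto1 (1.12) and Mgst3 (1.11) were higher, with Mgst3 under the floor in M1 with IL-1α.

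In the thioredoxin and peroxiredoxin list limma called 7 of 14 genes higher and 5 lower (median 0.17). Sesn1, a sestrin, was higher in M2 at 2.33 and its relative Sesn2 lower at -0.89. Txn1 itself was lower by a small amount (-0.16), as was Prdx2 (-0.15), while Txnip, the thioredoxin inhibitor, was higher at 0.20. Txnrd2, the mitochondrial counterpart of Txnrd1, gave -0.25 and did not pass (limma adjusted p = 0.054). Prdx5 and Prdx6 were not analysed here.

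A short list of superoxide and peroxide removal held 4 genes beside Sod2, of which 3 reached the floor. The cytosolic dismutase Sod1 (0.07) and catalase, Cat (-0.03), did not pass in limma (adjusted p = 0.30 and 0.60), and the copper chaperone Ccs was called higher at 0.25. Sod3, the extracellular dismutase, read under the floor on every array. Of the 7 NADPH oxidase list genes at the floor, 3 were called higher and 3 lower, with a median of 0.07. Cybc1, which supports the folding of the Cybb protein, was lower in M2 at -0.96 ± 0.07 (limma adjusted p = 1.50e-07), and the small GTPase Rac2 at -0.46. Cyba, the membrane partner of Cybb, was higher by 0.11, the cytosolic subunit Ncf4 lower at -0.15, and the proton channel Hvcn1 higher at 1.12. The 7 other listed oxidase genes measured, Nox1, Nox3, Nox4, Noxo1, Noxa1, Duox1 and Duox2, read under the floor on every array.

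**Figure D4:**
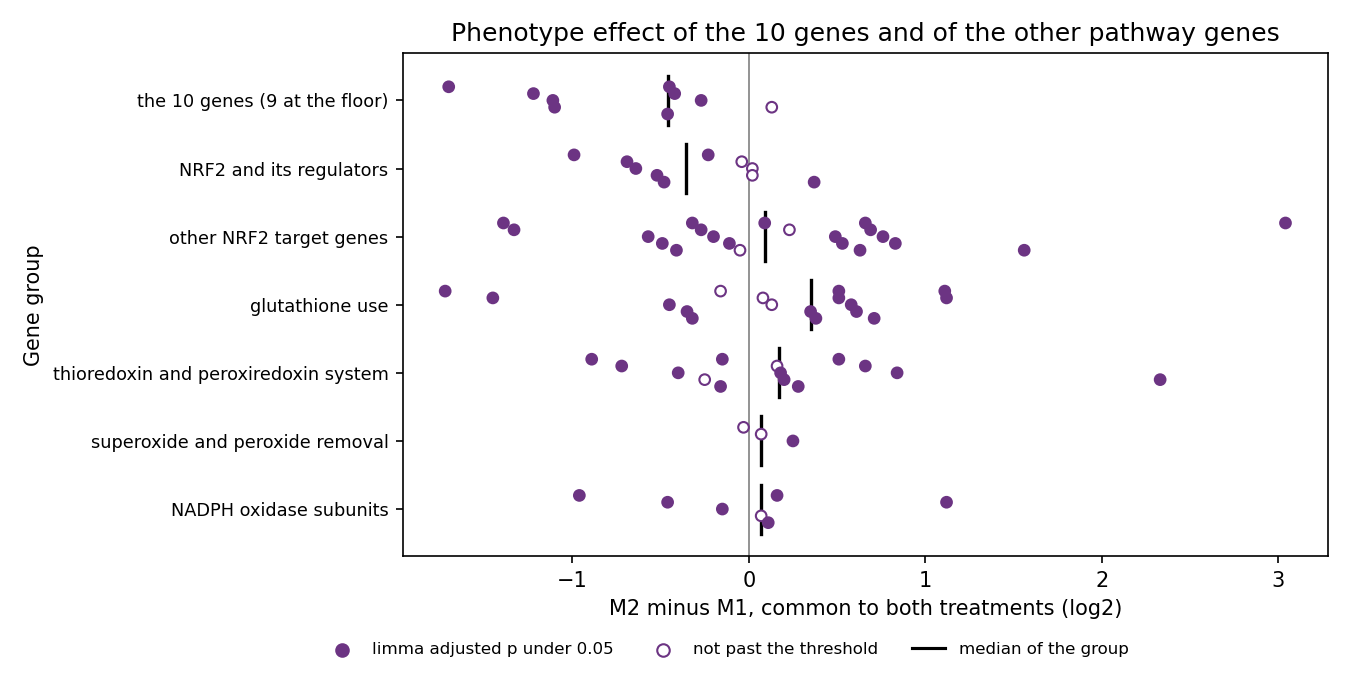
Phenotype effect of the limma additive model (M2 minus M1, log2, x axis) for the 9 genes at the floor and for the 72 other pathway genes at the floor, by list (y axis); each point is a gene, filled where the adjusted p was under 0.05, and black lines are medians. The 9 genes have a median of -0.46 and NRF2 with its regulators -0.35, while the other 5 lists have medians from 0.07 to 0.35.

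Genes with the most similar pattern over the 4 arrays were sought for Slc7a11, Sod2 and Cybb among 10067 genes, by the Euclidean distance between log2 levels centred on each gene's mean. For Slc7a11 the nearest were the chemokine gene Ccl4 (distance 0.082), the proteoglycan gene Bgn (0.108) and Trim13 (0.114). For Sod2 they were Rab20 (0.070), Rab32 (0.091) and the lipid phosphatase gene Lpin2 (0.122). For Cybb they were Parp3 (0.023), the amino acid transporter gene Slc16a10 (0.030) and Azi2 (0.032). With 4 points per gene, such likeness is a description of these arrays.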

How the data were processed

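The authors deposited RMA signals per probe set, taken here as log2, and the submitters' processing notes name Affymetrix Expression Console. Its version and settings are not given in the sources used here, and the log base was read from the range of the values (3.09 to 14.47). RMA in general sets arrays to a common distribution, which removes any global difference in RNA output.

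Of 35556 rows, the 21789 that carried 1 gene in the platform annotation were kept and averaged per gene, with symbols updated through RefSeq (GRCm38.p6; 21698 matched). Groups came from the source names. Genes under the floor on all arrays compared were left out. A difference was counted at 2-fold. limma 3.58.1 (R 4.3.3, lmFit, eBayes with a trend) fitted phenotype plus treatment, at a Benjamini-Hochberg threshold of 0.05. The fit was tested on simulated data with phenotype effects only and 1 noise level for all genes, scaled to the M1 pair. Such data hold no departure from additivity beyond that noise and no spread between cultures or animals, so they cannot check the p-values for either. Whether the arrays hold separate cultures or animals is not in the labels. The p-values set an effect against the departure from additivity on these 4 arrays, with variance borrowed from the other genes. They hold no spread between replicate arrays, and the number of arrays limits precision.

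The 10 genes and all lists were chosen with earlier results of these data known. Named genes were the 10, 25 pathway genes listed by name, pathway genes past 2-fold in any comparison, and the 3 nearest genes of Slc7a11, Sod2 and Cybb (protein-coding, no predicted genes or clones). Mafk, Nfe2l1, Rbx1, Ccs, the oxidase genes under the floor and the single marker genes were named after their values were seen. Other settings tried were 1.5-fold, a floor at 9.635 (the 75th percentile) or none, loess centring, quantile normalisation on top of RMA, the brightest probe set of each gene, and eBayes either robust or without the trend. Some items of the lists are not reported here. Promoter windows came from the RefSeq table, which matched 9 of the 10 genes.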

Additional observations from a re-analysis of the deposited data

Results flagged for a closer look

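In 4 of the 10 genes the IL-1α array read on opposite sides of vehicle in M1 and M2. Over all genes compared, 49.2% read higher with IL-1α in M1 and 69.3% in M2, so opposite signs are common. The share of all genes with opposite signs was not counted, and the 4 are no more than a description. The M2 response minus the M1 response was 0.27 for Nqo1, which lay under the floor on every array, 0.23 for Srxn1 (-0.02 in M1, 0.21 in M2), 0.06 for Prdx1 (-0.01 and 0.04) and -0.13 for Ncf1 (0.06 and -0.07). These differences were not tested and each rests on 1 array per group. The standard deviation across all genes was 0.111 in the M1 pair and 0.177 in the M2 pair.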

How the results depend on the processing

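Under the alternatives, the 4 genes counted at least 2-fold lower in M2 stayed 4 in number under vehicle and under IL-1α, except that the 1.5-fold threshold gave 5 under vehicle. That threshold also gave 1 gene higher with IL-1α in M2, Slc7a11, where 2-fold gave 0. A further quantile normalisation let limma call 1 gene of the set higher in M2, Gclc (0.16, adjusted p = 0.028), where the other settings called 0. Without a floor Nqo1 entered the limma fit at -0.32 ± 0.11 (adjusted p = 0.045), so that 9 genes were called lower instead of 8. In the other settings limma called 8 lower, with adjusted p up to 0.027 (Txnrd1), and 0 genes of the set for IL-1α in any setting, where the adjusted p of Slc7a11 ran from 0.096 to 0.92. No paired analysis was possible because each group holds 1 array. Signal over background limits Nqo1, and with 1 array per group no difference between single arrays has an error.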
